A study of Homo sapiens with 48 samples.

Results

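The 8 human SMAD genes, SMAD1, SMAD2, SMAD3, SMAD4, SMAD5, SMAD6, SMAD7 and SMAD9, were examined for NF-κB binding in L3.6pl, an established human pancreatic ductal adenocarcinoma (PDAC) cell line. All 8 were found among the 20033 protein-coding genes of GENCODE 44 on hg38. A member's regions are the ChIP-seq peaks that overlap its gene body or the 50 kb on either side, and the 8 windows do not overlap one another. The family was chosen by the RELA and RELB fold enrichment of a strong shared region at a SMAD1 start in these same lists, so the binding values below describe the genes and are not tested.

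Cells received vehicle (PBS), TNFα for 30 min or 6 h, or TWEAK for 30 min or 6 h, and RELA, RELB and the acetylated histone H3K27ac were precipitated in each condition. FOSL1 was precipitated in vehicle alone. The 48 samples form 16 groups of 3 replicates, and each group is represented by 1 peak list, so no value carries a replicate error. The RELA list of 30 min TNFα names replicate 1 beside the merged set, and whether it pools all 3 replicates is not settled; the labels do not give how long vehicle lasted. One cell line stands for PDAC here, and read depth is unknown. In vehicle, an H3K27ac peak covered the start of 5 of 5 epithelial marker genes, KRT8 (fold enrichment 2.54), KRT18 (2.56), KRT19 (1.84), EPCAM (4.23) and CDH1 (2.74). It also covered that of 1 of 5 markers of other cells, the collagen gene COL3A1, while PTPRC, PECAM1, COL1A1 and CD3E had none. COL3A1, at 2.92, was above every epithelial marker but EPCAM. Of all protein-coding genes, 61.1% had vehicle H3K27ac within 500 bp of the main start.

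SMAD proteins carry signals of the TGF-β superfamily from cell surface receptors to the nucleus. SMAD2 and SMAD3 are phosphorylated by TGF-β and activin receptors, SMAD1, SMAD5 and SMAD9 by BMP receptors, and SMAD4 joins both kinds as their common partner and is often lost in PDAC. SMAD6 and SMAD7 are inhibitory and are themselves induced by the pathway. RELA is the DNA-binding subunit typical of canonical NF-κB signaling, which TNFα activates, and RELB that of the noncanonical pathway, which TWEAK activates. FOSL1 is an AP-1 subunit, and H3K27ac marks active promoters and enhancers.

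NF-κB regions were found at 4 of the 8 genes. In the RELA list of 30 min TNFα, SMAD1, SMAD2, SMAD3 and SMAD6 had a region, 4 of 8 against 48.1% of all protein-coding genes, a share near the background. The RELB list of 6 h TWEAK held regions at SMAD1, SMAD2 and SMAD3, 3 of 8 genes against a background of 13.6%. SMAD1 enters both counts through the region for which the family was chosen, so neither count is independent of that choice. SMAD4, SMAD5, SMAD7 and SMAD9 had no region in any of the 10 RELA and RELB lists. The share of all genes with none in any list was not computed, so their lack of regions is not read as particular to them. Member windows were long, with a median of 177 kb against 127 kb for all genes, and a longer window holds more peaks.

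The regions that carry these results are shown by their hg38 plus strand. A 10-letter NF-κB consensus and the AP-1 motif TGANTCA were searched on both strands; capitals mark their matches, except that in SMAD1, where the 200 bp around the summit hold neither, capitals mark the stretch closest to the NF-κB consensus and an AP-1 match farther out. The peak summit is the middle base of each sequence. SMAD1 and SMAD2 have the strongest regions, the SMAD3 region is the one in most lists, and the SMAD6 region is the strongest of that gene.
SMAD1 intron 4 (chr4:145545846-145546086): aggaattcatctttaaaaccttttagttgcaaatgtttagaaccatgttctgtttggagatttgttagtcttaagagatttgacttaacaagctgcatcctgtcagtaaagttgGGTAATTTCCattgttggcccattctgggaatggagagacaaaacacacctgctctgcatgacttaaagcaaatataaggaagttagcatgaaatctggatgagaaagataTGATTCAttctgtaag
SMAD2 downstream region (chr18:47772716-47772836): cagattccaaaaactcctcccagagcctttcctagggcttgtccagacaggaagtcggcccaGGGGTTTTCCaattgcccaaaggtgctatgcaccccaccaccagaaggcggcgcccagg
SMAD3 intron 1 (chr15:67121195-67121315): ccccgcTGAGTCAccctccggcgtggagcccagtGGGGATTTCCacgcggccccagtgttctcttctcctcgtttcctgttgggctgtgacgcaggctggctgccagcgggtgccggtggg
SMAD6 intron 3 (chr15:66761096-66761216): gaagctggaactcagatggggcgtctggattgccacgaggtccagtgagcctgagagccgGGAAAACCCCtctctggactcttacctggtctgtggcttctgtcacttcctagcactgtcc

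The SMAD1 region did not lie at the gene's main promoter. SMAD1 spans chr4:145481194-145559176 on the plus strand, its MANE Select transcript starts at 145481853, and the 450-bp region (chr4:145545725-145546174) had its summit 64.1 kb farther along, in intron 4. The nearest annotated start of a SMAD1 transcript, 111 bp away, belongs to SMAD1-208, which has no defined coding sequence and transcript support level 4. Starts of noncoding genes were not searched. A label that places this region at the SMAD1 start is therefore right only for that minor transcript. GENCODE lists 16 different transcript starts for SMAD1, and no RELA or RELB peak lay within 500 bp of the main one.

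At this SMAD1 region RELA reached a fold enrichment over input of 25.0 at 30 min TNFα, the rank 13 of 11266 peaks. It was 14.2 at 6 h TNFα (rank 300 of 7294), 9.06 at 30 min TWEAK (rank 477 of 2791) and 7.18 in vehicle (rank 799 of 3004). The RELA list of 6 h TWEAK held no peak there. RELB was called only at 6 h TWEAK, at 7.92 (rank 1070 of 4052). RELA was thus called before treatment and ranked highest in its list at 30 min TNFα, while RELB was called at 6 h TWEAK alone. The 5 summits fell within 35 bp of the strongest one.

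The 200 bp searched around the SMAD1 summit, 100 bp to each side, held no exact NF-κB consensus. The closest 10 bases, GGTAATTTCC, covered the summit with 1 mismatch, at position 3 of the consensus. An AP-1 match, TGATTCA, lay 108 bp from the RELA summit, just outside the window searched, and 27 bp from the summit of a FOSL1 peak of fold enrichment 13.1. That FOSL1 summit was 81 bp from the RELA summit. H3K27ac was called within 500 bp in all 5 conditions, at a fold enrichment of 3.20 in vehicle, 3.43 and 3.42 at 30 min and 6 h TNFα, and 3.00 and 3.23 at 30 min and 6 h TWEAK. In vehicle and at both 6 h times the mark was split into peaks on either side of the summit.

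SMAD2 had a strong region far from its start. SMAD2 spans chr18:47808957-47931146 on the minus strand, and the region (chr18:47772548-47772931) lay 36 kb past its 3′ end and 157.9 kb from its main start, which was still the nearest protein-coding start. RELA was at 20.2 at 30 min TNFα (rank 92), 12.2 at 6 h TNFα and 8.42 at 30 min TWEAK, and absent from the vehicle and 6 h TWEAK lists. RELB was at 15.3 at 6 h TWEAK (rank 131), the highest RELB fold enrichment of any SMAD region. GGGGTTTTCC, an exact NF-κB match, lay 6 bp from the summit.

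This SMAD2 region had no FOSL1 peak. It also had no H3K27ac in vehicle, whereas H3K27ac peaks were called at 30 min TNFα (3.16) and 30 min TWEAK (2.86) and not at either 6 h time. It was the only one of the 17 RELA regions of 30 min TNFα in the windows that had H3K27ac at 30 min TNFα and not in vehicle, 1 of 17 against 13.1% of all RELA regions of that list. A second SMAD2 region, 14.9 kb upstream (chr18:47945506-47945716), was called for RELA at 6 h TNFα alone, at 8.62. There, FOSL1 was at 9.49 in vehicle, and H3K27ac was called at 6 h TNFα alone, at 3.28.

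**Figure D1:**
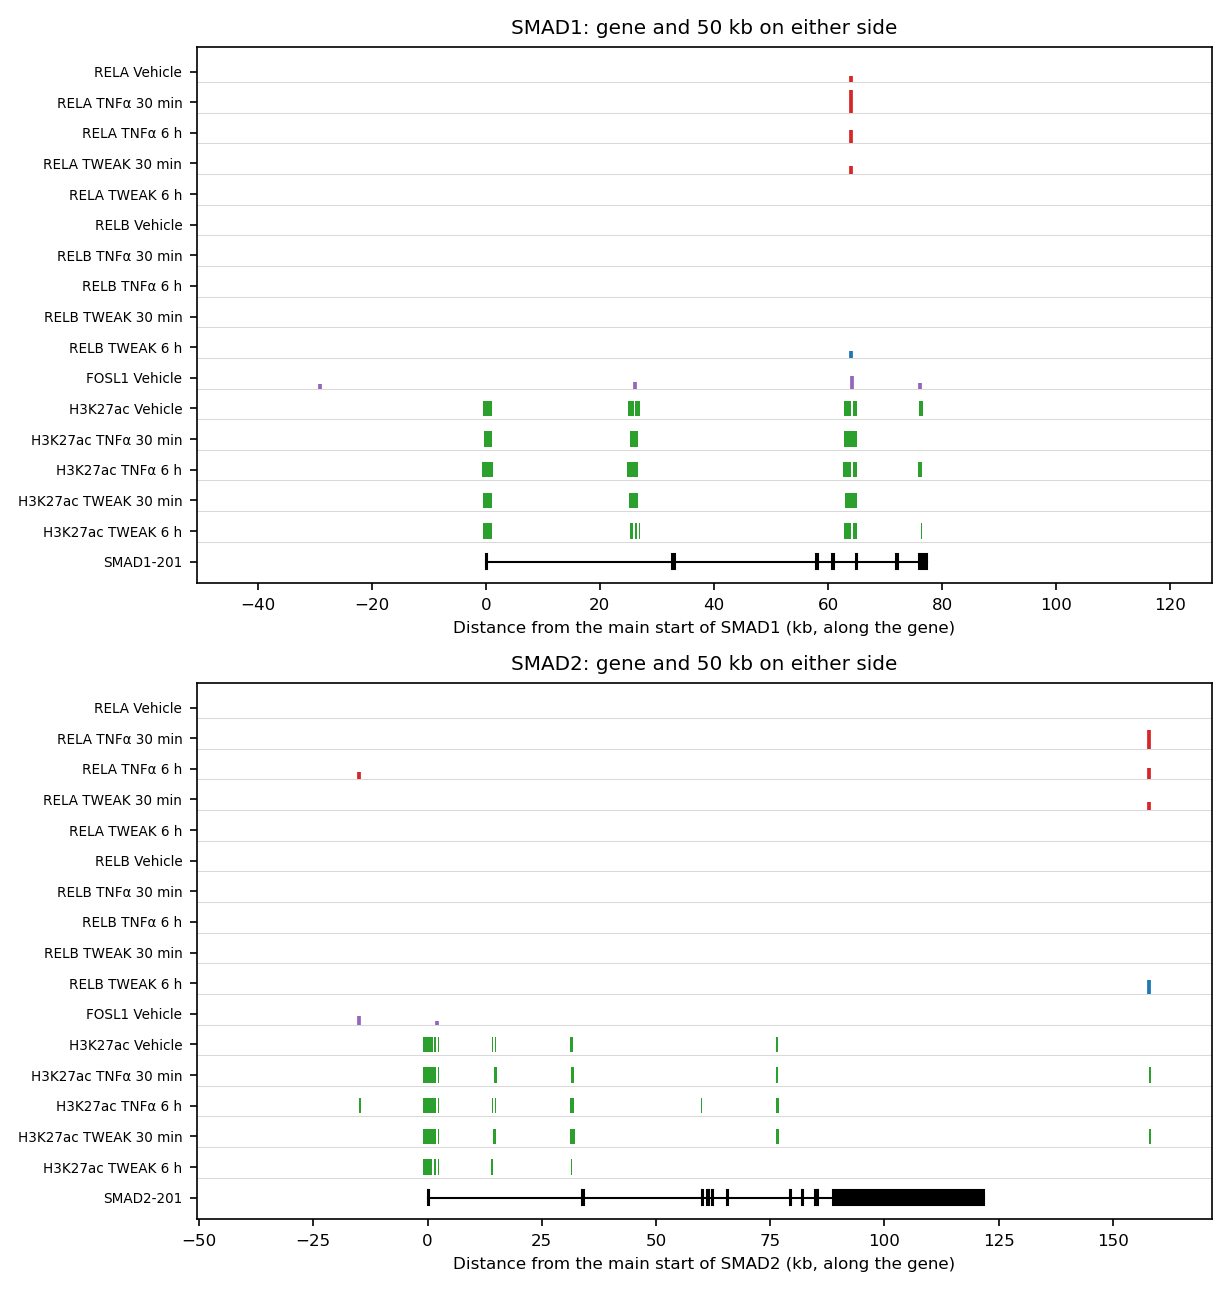
RELA (red), RELB (blue) and FOSL1 (purple) summits as vertical lines whose height is the fold enrichment (full height is the SMAD1 maximum) and H3K27ac peaks (green boxes) over SMAD1 and SMAD2, with the MANE Select exons in black; the horizontal axis is the distance in kb from the main start. The SMAD1 lines stand together at 64.1 kb inside the gene, and the strongest SMAD2 lines at 157.9 kb, beyond the gene's end, where green boxes appear only at 30 min of either cytokine.

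SMAD3 held most of the binding. SMAD3 spans chr15:67063763-67195173 on the plus strand with its main start at 67065602, and its window had 10 RELA regions at 30 min TNFα, 8 at 6 h TNFα, 1 at 30 min TWEAK, 2 at 6 h TWEAK and 1 in vehicle. RELB regions numbered 6 at 6 h TWEAK, 3 at 6 h TNFα and 1 in vehicle. Only 0.0399% of protein-coding genes, 8 in number, had 10 or more RELA regions at 30 min TNFα, and 0.015%, 3 in number, had 6 or more RELB regions at 6 h TWEAK. Per kb of window, 0.804% and 0.16% of genes reached the SMAD3 density of these lists. SMAD3 was therefore high in both measures also when the length of its window (231 kb) was allowed for. The cutoffs of 10 and 6 are the counts of SMAD3 itself. The weakest of its 6 RELB peaks was at 3.70 (−log10 q 2.69, rank 3860 of 4052) and shared a site with another of them.

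The SMAD3 peaks merged into 10 sites, 8 of them in introns. The site in most lists lay 55.7 kb into intron 1 (chr15:67121080-67121488) and was called in 8 of 10 lists. Its RELA fold enrichment was 7.36 in vehicle, 16.8 and 13.7 at 30 min and 6 h TNFα, and 8.57 and 6.67 at 30 min and 6 h TWEAK. Its RELB fold enrichment was 4.77 in vehicle, 5.40 at 6 h TNFα and 12.1 at 6 h TWEAK, and RELB was not called at 30 min of either cytokine. It was the only SMAD region with RELB in vehicle. GGGGATTTCC lay 22 bp and the AP-1 match TGAGTCA 51 bp from the summit, with a weak FOSL1 peak of 3.95. H3K27ac was called in all 5 conditions, between 1.66 and 2.18.

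Another 3 SMAD3 sites in intron 1 carried both subunits. At 25.7 kb RELA was at 8.02 and 4.68 at 30 min and 6 h TNFα, and RELB at 4.93 at 6 h TNFα and 5.97 at 6 h TWEAK. At 41.6 kb RELA was at 10.1 and 5.73 and RELB at 6.32 at 6 h TWEAK, and this 673-bp site held 2 peaks in each of the 6 h TNFα RELA and 6 h TWEAK RELB lists. At 51.4 kb RELA ranked 10813 of 11266 at 30 min TNFα (3.70) and 2352 of 7294 at 6 h (6.87), with RELB at 5.08 at 6 h TWEAK. This last site had no H3K27ac in vehicle or at either 30 min time and had it at both 6 h times, at 1.81 with TNFα and 1.68 with TWEAK. No FOSL1 peak overlapped it.

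The other 5 SMAD3 sites were in RELA lists of TNFα alone. At 30 min they had a fold enrichment of 10.8 at 41.4 kb upstream, 10.0 at 40.1 kb, 5.24 at 81.6 kb, 3.87 at 85.2 kb and 4.71 at the promoter, 61 bp from the main start. The sites at 81.6 and 85.2 kb were also called at 6 h, at 3.46 and 4.55, and the other 3 were not. The 5 RELB-bound SMAD3 sites were all called for RELA at both TNFα times.

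SMAD6, which lies near SMAD3 on chromosome 15 (chr15:66702236-66782849), had RELA and no RELB. RELA regions numbered 5 at 30 min TNFα, where 1.87% of genes had 5 or more, 2 at 6 h TNFα and 1 at 30 min TWEAK. The share of 1.87% makes no allowance for the length of the SMAD6 window, 180.6 kb. The 5 regions of 30 min TNFα ranked between 4650 and 10101 of 11266. One, at 5.66, was at the promoter, 18 bp upstream of the main start. The other 4 stood between 58.9 and 63.9 kb in intron 3, at 6.51, 6.03, 4.46 and 4.15. The one at 58.9 kb was also called at 6 h TNFα (6.87) and 30 min TWEAK (4.85), and it alone of the SMAD6 sites held the NF-κB consensus, 4 bp from its summit on the minus strand. All 5 SMAD6 sites had H3K27ac in all 5 conditions, between 1.61 and 2.22.

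**Figure D2:**
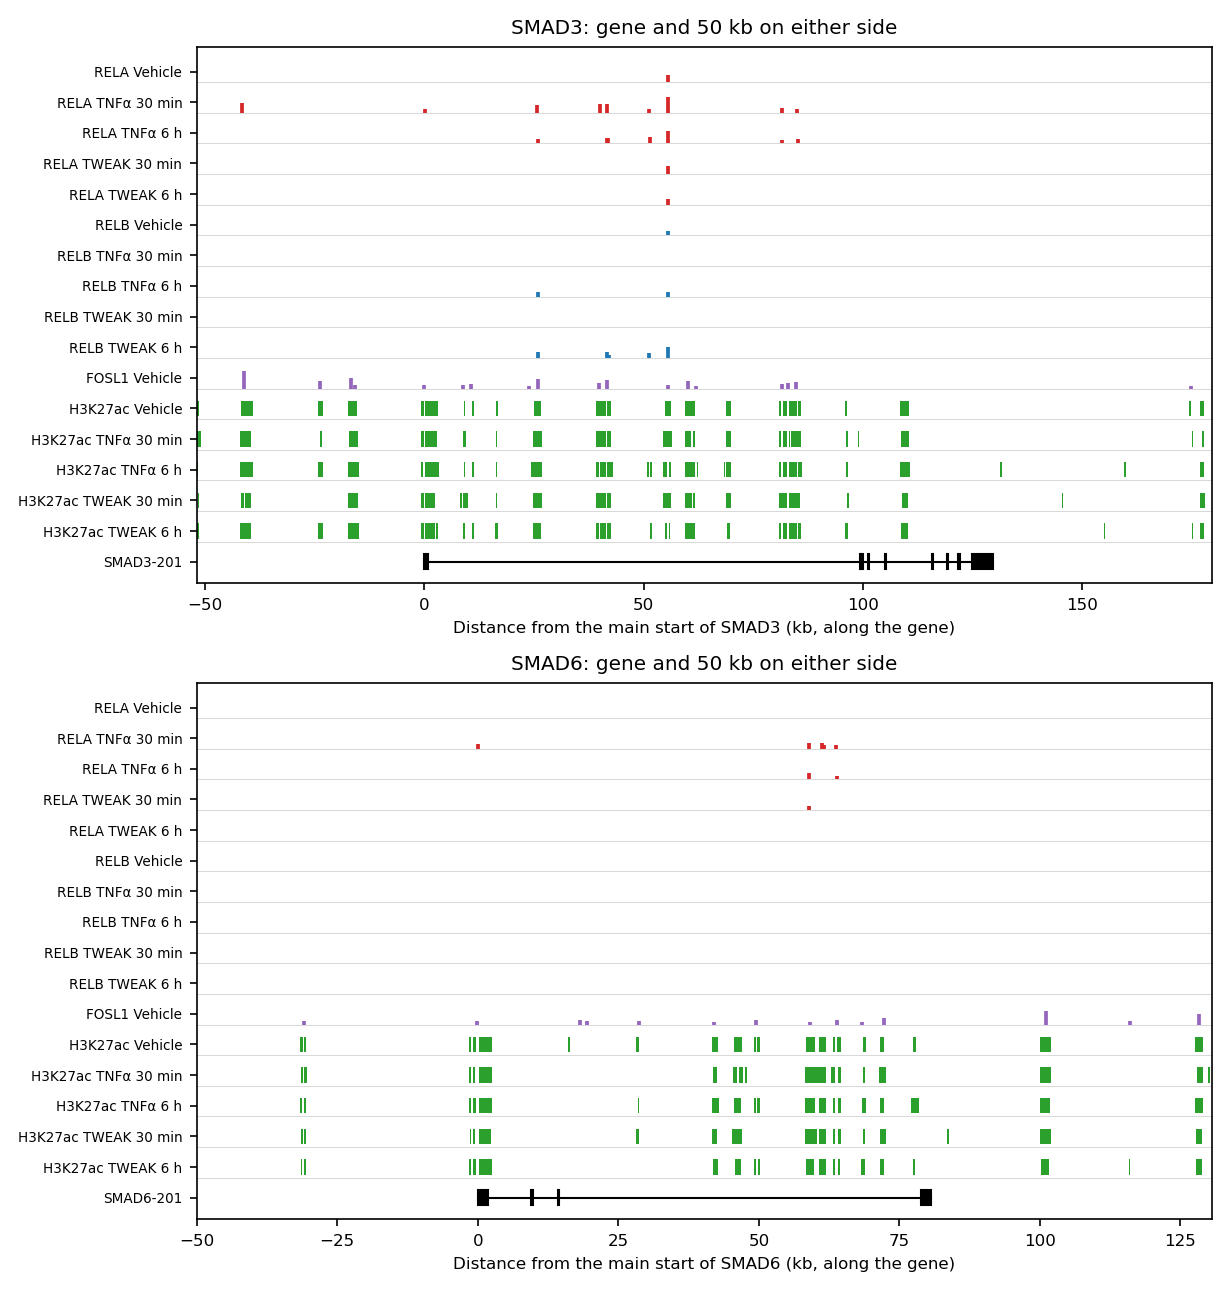
The same map for SMAD3 and SMAD6, with distances in kb from the main start along each gene. Of the 10 SMAD3 sites 9 are drawn, with RELA lines at each and RELB lines at 4, and SMAD6 has RELA lines at its start and between 58.9 and 63.9 kb and no RELB line.

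Over the 4 genes the peaks merged into 18 sites. RELA alone was called at 11 and both subunits at 7, and no site had RELB alone. Only 2 of the 18, those in SMAD1 and in SMAD3 intron 1, were in the RELA vehicle list. The shares over all merged sites of the lists were not computed, so these site counts are not read as particular to the SMAD genes. By gene, 2 of 8 had a RELA region in vehicle (background 5.05%), 4 at 6 h TNFα (26.8%), 4 at 30 min TWEAK (7.58%) and 1 at 6 h TWEAK (5.12%). The counts in vehicle, at 6 h TNFα and at 30 min TWEAK include the SMAD1 region for which the family was chosen. For RELB, SMAD3 was the 1 gene with a region in vehicle (3.06%) and at 6 h TNFα (3.87%), and none had one at 30 min TNFα (1.59%) or 30 min TWEAK (1.41%).

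**Figure D3:**
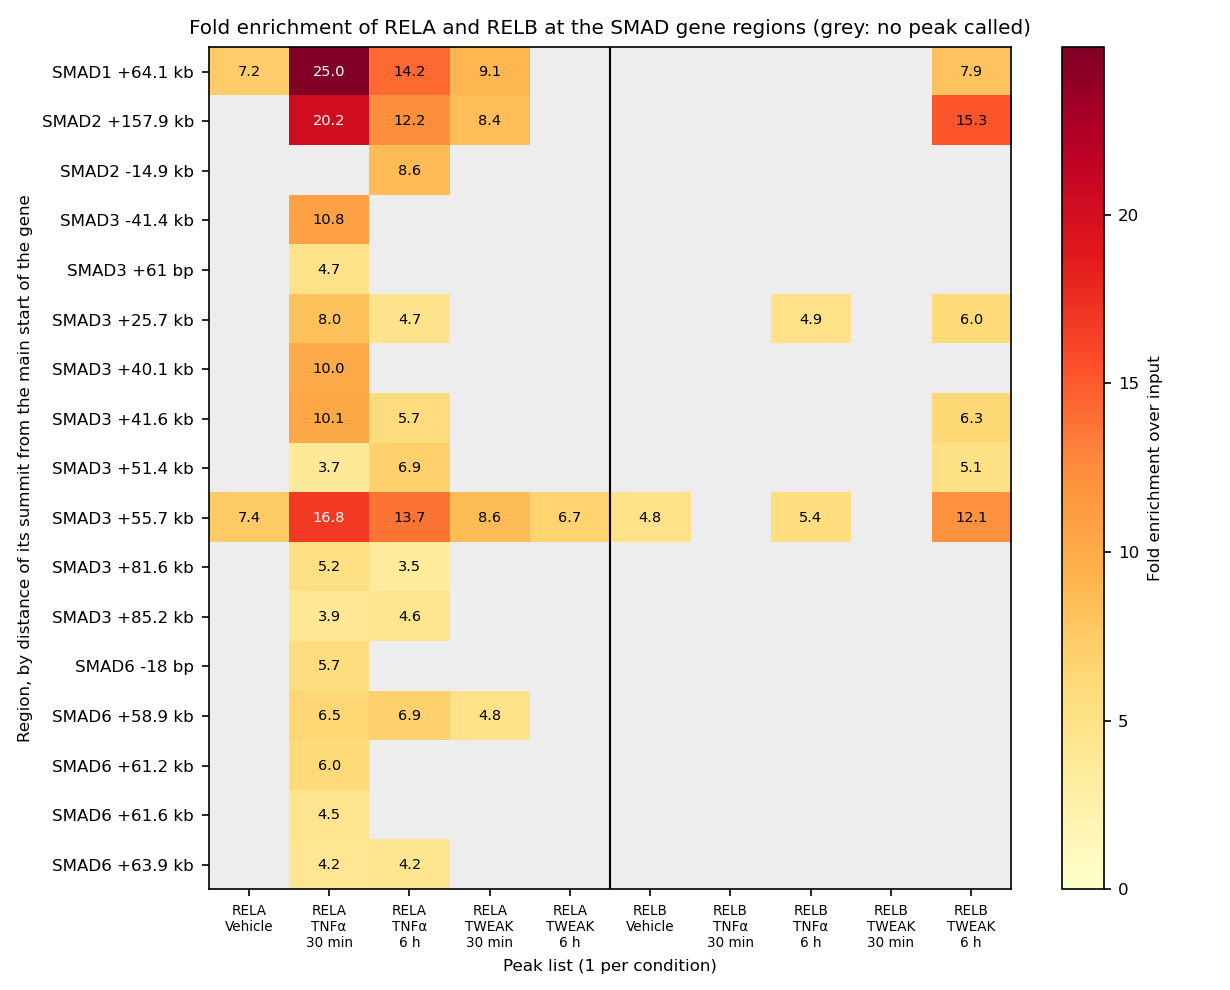
Fold enrichment over input (colour and number) of 17 of the 18 merged SMAD sites, in rows by distance from the main start, in the 10 RELA and RELB lists, in columns; grey means that no peak was called. Colour is densest in the RELA columns of TNFα and the RELB column of 6 h TWEAK, and SMAD1 at 30 min TNFα is the darkest at 25.0.

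**Figure D4:**
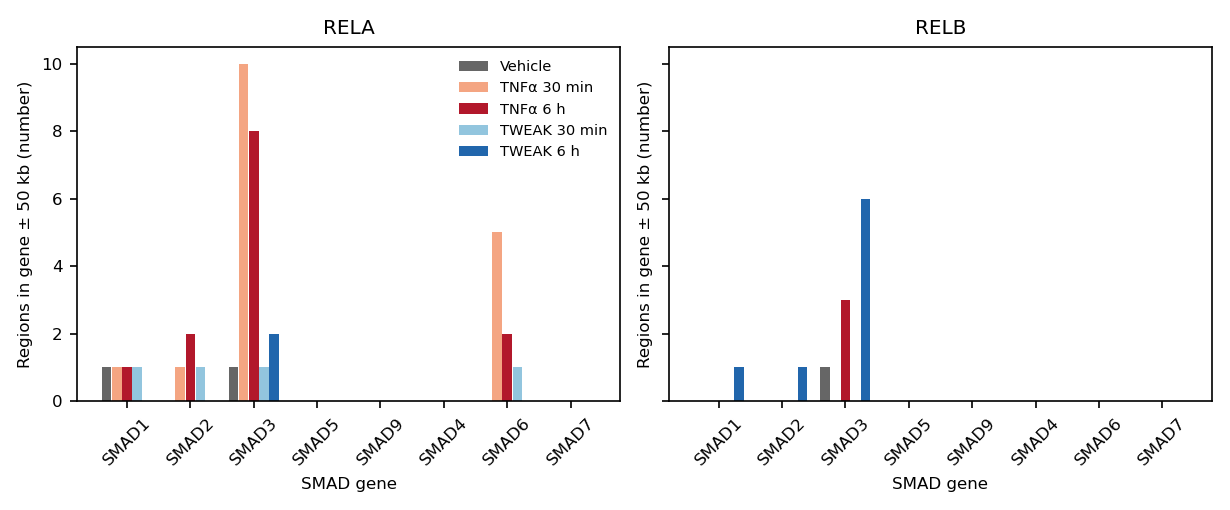
Number of RELA (left) and RELB (right) peaks in the gene body and 50 kb on either side of each SMAD gene, with 1 bar per condition. SMAD3 has the tallest bars, 10 for RELA at 30 min TNFα and 6 for RELB at 6 h TWEAK, and SMAD5, SMAD9, SMAD4 and SMAD7 have none.

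The 17 RELA regions of 30 min TNFα in the windows were set beside the whole list as a description. They are not independent of one another, since 10 of the 17 share the SMAD3 gene, and they include the SMAD1 region for which the family was chosen. Many peaks of the lists lie in tandem repeats, and 73.8% of the RELA regions of 30 min TNFα did not, whereas all 17 did not. RELB of 6 h TWEAK overlapped 7 of 17, or 41.2%, against 27.3% of the list and 15.8% outside tandem repeats. RELB of 6 h TNFα overlapped 3, or 17.6%, against 20.8% and 4.03%. The RELA vehicle list overlapped 2, or 11.8%, against 19.3% and 4.34%. Of the treated RELA lists, 6 h TNFα overlapped 11 of the 17, or 64.7%, against 45.2% and 35.3%. RELA of 30 min TWEAK overlapped 4, 1 in each gene, or 23.5%, against 20.1% and 7.78%, and RELA of 6 h TWEAK overlapped 2, both in SMAD3, against 21% and 4.33%. The 15 regions absent from vehicle lay in SMAD2, SMAD3 and SMAD6, and 46.9% of all genes had such a region. With TWEAK at 6 h, RELB regions absent from the RELB vehicle list were found at SMAD1, SMAD2 and SMAD3, against 11.8% of all genes.

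FOSL1 overlapped 12 of the 17 RELA regions, 70.6% (exact Clopper-Pearson 95% interval, for counting error alone, 44.04 to 89.7), against 58% of the list and 48.9% outside tandem repeats. H3K27ac was present in vehicle at 15, 88.2% (63.6 to 98.5), against 60.1% and 63.2%, and at 16, 94.1% (71.3 to 99.9), in each treated condition, against 71.2% of the list and 74.3% outside tandem repeats at 30 min TNFα, 67.1% and 70.9% at 6 h TNFα, 63.3% and 63.3% at 30 min TWEAK, and 60.5% and 63.5% at 6 h TWEAK. The 1 region that gained the mark was in SMAD2 at 30 min (list background 13.1% with TNFα and 6.63% with TWEAK) and in SMAD3 at 6 h (9.48% and 4.54%), and none of the 17 lost it (2.03%, 2.49%, 3.46% and 4.09% of the list in the order of the conditions above). An exact NF-κB consensus lay in the 200 bp around the summit at 6, 35.3% (14.2 to 61.7), against 34.8% and 46.2%. With 1 mismatch allowed outside the leading 3 bases the share of the list was 55.5%, and with 1 anywhere, as in SMAD1, it was 64.3%. AP-1 lay there at 4, 23.5% (6.81 to 49.9), against 14.4% and 18.9%, and both motifs at 2, against 5.52% and 7.4%.

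FOSL1 in vehicle had 50 regions in the windows, at 6 of the 8 genes against a background of 90.5%. SMAD3 had 19, SMAD6 14, SMAD7 8, SMAD1 4, SMAD5 3 and SMAD2 2, and SMAD4 and SMAD9 had none. The strongest, at 22.1 (rank 83 of 58864), lay 77.4 kb from the SMAD7 start, past the 3′ end of the gene. The SMAD5 maximum of 17.0 lay 9.4 kb upstream of its start. These 2 genes thus had strong FOSL1 regions and no RELA or RELB peak called inside the 50 kb limit, though both had peaks beyond it. RELA or RELB overlapped 13 of the 50 against 14.9% of all FOSL1 regions, AP-1 was found at 28 against 44.4%, and vehicle H3K27ac at 42 against 67.3%. All 13 overlaps were at SMAD1 (1), SMAD2 (1), SMAD3 (8) and SMAD6 (3).

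H3K27ac lay within 500 bp of the main start of all 8 genes in vehicle, against 61.1% of protein-coding genes. The common partner SMAD4, with no NF-κB or FOSL1 region, was at 4.51 in vehicle and between 4.36 and 5.17 after treatment. SMAD5 was the highest in vehicle, at 5.15, with 4.55 and 4.63 at 30 min and 6 h TNFα and 4.57 and 5.46 at 30 min and 6 h TWEAK. SMAD7 was the lowest, at 1.76 in vehicle, with 2.46, 2.26, 2.31 and 2.55 in the same order. SMAD1 was at 4.20, 4.44, 3.81, 4.34 and 4.30 in vehicle and those 4 conditions, SMAD2 at 3.12, 2.67, 2.63, 2.83 and 3.25, and SMAD3 at 2.70, 2.72, 2.12, 2.80 and 2.61. The SMAD6 start stayed between 2.17 and 2.22. These values come from single lists, and whether the steps between conditions exceed the replicate spread cannot be told.

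SMAD9 was the exception. Its start had an H3K27ac peak of 3.34 in vehicle, 2.80 at 6 h TNFα and 2.64 at 6 h TWEAK and none at 30 min TNFα or 30 min TWEAK. Vehicle H3K27ac was lost at 2.74% and 2.08% of all starts at these 2 times. The SMAD9 peak was weak, with −log10 q of 3.87, 2.34 and 1.21 in the 3 lists that held it, against 25.4 for SMAD4 in vehicle. At the SMAD7 start −log10 q was lower in vehicle, at 1.76, and lay between 4.53 and 5.71 after treatment. Elsewhere in the SMAD9 window H3K27ac was called at 5.51 in vehicle, 3.91 at 30 min TNFα and 4.71 at 30 min TWEAK. RELA of 30 min TNFα was within 500 bp of the main start of SMAD3 and SMAD6 (background 6.95%), and FOSL1 at those of SMAD3, SMAD5 and SMAD6 (40%).

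**Figure D5:**
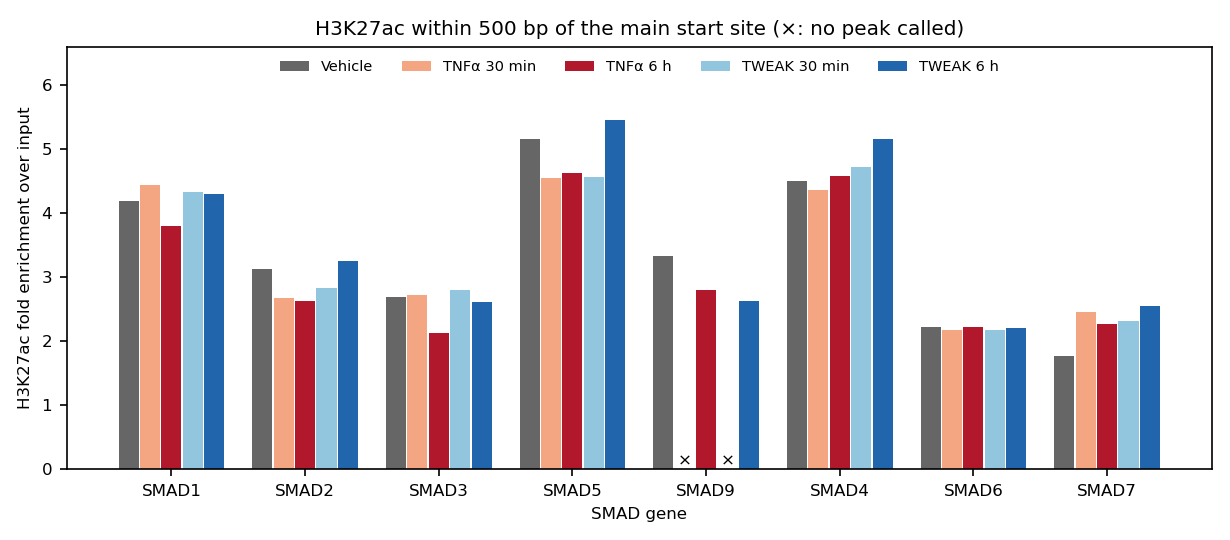
Fold enrichment of H3K27ac over input within 500 bp of the main start of each SMAD gene in the 5 conditions, with 1 bar per peak list and a cross where no peak was called. SMAD5 and SMAD4 have the tallest bars, SMAD7 the lowest in vehicle at 1.76, and SMAD9 has no bar at 30 min of TNFα or TWEAK.

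Across the windows H3K27ac peaks numbered 74 in vehicle, 67 and 83 at 30 min and 6 h TNFα, and 67 and 78 at 30 min and 6 h TWEAK, and all 8 genes had peaks in each list (backgrounds 91.5%, 90.2%, 91.5%, 90.6% and 91.1%). Of these, 6, 13, 7 and 7 did not overlap a vehicle peak, and 12, 3, 11 and 7 vehicle peaks had no counterpart in these lists. At SMAD3, 6 of 30 peaks of 6 h TNFα had no vehicle counterpart. The share over all H3K27ac peaks was not computed for any of these counts. The whole vehicle list held 59894 peaks. The others held 53895 and 61194 at 30 min and 6 h TNFα, and 55821 and 58021 at 30 min and 6 h TWEAK. Such counts also depend on list size, so they are not read as gain or loss at the SMAD genes.

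The limit of 50 kb came close to 1 further member. Just outside it, SMAD5 had a RELA peak of 6.20 at 30 min TNFα, 50.1 kb from the gene, and the nearest RELA peak inside any limit was that of SMAD3 39.5 kb upstream of the gene, at 10.8. SMAD7 had a site 86.5 kb past its 3′ end with RELA at 8.08 at 30 min TNFα and RELB at 11.5 at 6 h TWEAK, and its own start was the nearest protein-coding one.

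Other genes of the pathway, a list of 34 ligands, receptors and regulators, had a RELA region at 30 min TNFα about as often as all genes, 17 of 34 against 48.1%. RELA was found at 9 of them at 6 h TNFα (26.8%), at 4 at 30 min TWEAK (7.58%) and at none in vehicle or at 6 h TWEAK. RELA of 30 min TNFα was found at 5 of 10 ligands, 5 of 10 receptors, 3 of 4 extracellular inhibitors (FST, GREM1 and CHRD), 3 of 6 regulators (SKIL, SMURF1 and SMURF2) and 1 of 4 targets, ID1 at 5.68, where the nearest coding start was that of MCTS2. The highest were the ligand GDF15 at 16.3, TGFB1 at 13.5, where CCDC97 was nearer, and the co-receptor TGFBR3 at 11.0. Next came the ubiquitin ligase SMURF1 at 10.4, which marks SMADs and receptors for degradation, and TGFB2 at 9.88. Among the named inhibitors and regulators, another coding start was nearer at CHRD (POLR2H) and SKIL (CLDN11). The strongest SMURF1 and SMURF2 peaks were nearest to their own starts. So were the FST and GREM1 peaks, at 49.9 and 49.7 kb. RELB of 6 h TWEAK was found at 4 of the 34, TGFB1 at 13.1, GDF15 at 10.7, the receptor BMPR1A at 8.10 and TGFB2 at 5.34, against 13.6% of all genes. Another coding start was nearer than that of TGFB1 (CCDC97), GDF15 (PGPEP1, with the peak 45.7 kb from the GDF15 start) and BMPR1A (MMRN2, with the peak 197.2 kb from the BMPR1A start). In the other RELB lists, TGFB1 (5.27) and the activin subunit gene INHBB (4.40) had a region in vehicle, INHBB (6.63) at 30 min TNFα, and TGFB1 (6.33) and GDF15 (5.64) at 6 h TNFα.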

How the data were processed

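ChIP-seq for RELA, RELB, H3K27ac and FOSL1 was performed in L3.6pl cells, with groups taken from the sample labels. The authors mapped paired-end reads to hg38 with Bowtie2 2.5.0 and called peaks with MACS2 against input; the submitters' notes also name SAMtools 1.18 and deepTools 3.3.2. The deposited lists, 11 of narrow and 5 of broad H3K27ac peaks, give a fold enrichment (a ratio of ChIP over input) and a −log10 q for each peak. The summit offsets are the authors' as well, and the deposited −log10 p was not used. The MACS2 version and the handling of duplicates and repeats are not given in the sources used here.

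The autosomes and both sex chromosomes were used. Overlap needed 1 bp. Main starts are those of MANE Select transcripts in GENCODE 44. An H3K27ac peak counted for a summit or start when it came within 500 bp, and a motif when it lay in the 200 bp around a summit. A summit lay in a tandem repeat where the self-match of its 1000 bp at shifts of up to 400 bp reached 0.4. Fold enrichments are read within a list; between lists they also depend on depth, which is unknown. Code was tested on simulated data and run with pandas 2.3.3, pysam 0.24.0, scipy 1.17.1 and numpy 2.4.6 (Python 3.11.15).

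The named regions were the strongest RELA and RELB region of each member and every region in 5 or more of the 10 lists, and the named pathway genes the 5 strongest of each list and members of groups with 5 or fewer. The members and lists were chosen with earlier results of these data known. The search for the closest 10 bases and the values outside tandem repeats were chosen later, with the values in view. The alternatives covered stricter peaks, other windows, overlaps and motif rules. One SMAD3 region enters the counts but is not reported here. No test between conditions was possible with 1 list each.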

Additional observations from a re-analysis of the deposited data

How the results depend on the processing

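Of 55 alternatives for 9 results, 48 stayed within 1.5 times the reported count or within the interval of the reported share. The intervals of the shares are wide, so staying within one is a weak check. Vehicle H3K27ac met 70.6% of the RELA regions, 12 of 17, when its peak had to overlap the region, against 88.2% within 500 bp. The share of the whole list under that rule was not computed. With the 2000 strongest peaks of each list alone, the windows held 7 RELA regions of 30 min TNFα in place of 17, 5 of them absent from vehicle in place of 15, and 5 RELB regions of 6 h TWEAK in place of 8; a shorter list holds fewer peaks by construction. FOSL1 met 35.3% of the RELA regions when its summit had to lie within 100 bp, against 70.6% for any overlap. The share was also 35.3% when the FOSL1 fold enrichment had to be 5 or more. No whole-list share was computed under either rule, so whether the regions stay above the list there cannot be told. The NF-κB share was 76.5% with 1 mismatch outside the leading bases (72.4% of regions outside tandem repeats) and 82.4% with 1 mismatch anywhere (83.6%), the second chosen after seeing the data, against 35.3%. Genes with a RELA region ranged from 3 in the gene body alone to 6 within 100 kb, and the share of all genes was not computed for those windows. The SMAD1 region was in 5 lists under all 4 alternatives run for it. No paired analysis was possible because the replicates of a condition share 1 peak list; for the same reason no replicate could be left out. Depth is unknown, so a missing peak is not shown to be missing binding.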

Other observations

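The genes that share the high region counts of SMAD3 were, for 10 or more RELA regions at 30 min TNFα, LPP, NEDD9, ANO1, RAD51B, CCDC200, DLGAP1 and CEACAM16, and for 6 or more RELB regions at 6 h TWEAK, SDK1 and CCDC200. Of these, CEACAM16 (112 kb) and CCDC200 (188 kb) had shorter windows than SMAD3 (231 kb), and the others had longer ones. They were named after their values were seen.

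RefSeq lists 19 promoter windows of 300 bases around a start for the 8 SMAD genes. The NF-κB consensus was found in 2 of the 19, 1 of SMAD1 and 1 of SMAD3, against 5.91% of 35116 promoters, and AP-1 in 2, 1 of SMAD1 and 1 of SMAD3, against 7.71%. The windows of SMAD2, SMAD4, SMAD5, SMAD6, SMAD7 and SMAD9 held neither motif.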
